A study of Solanum tuberosum with 136 samples.

Results

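The gene expression difference between the primary bud and the flesh of potato tubers was measured at the start of storage, week 0, before any ethylene was given. The members were chosen by their titles: 4 control libraries of the primary bud and 4 control libraries of the flesh at week 0, 8 RNA-seq libraries of a series with 34 groups of 4. All tubers were of the cultivar Russet Burbank. The study compared both tissues in tubers stored as controls or under 10 ppm ethylene, and later in tubers moved back to air. Later libraries of both tissues were controls of weeks 3, 6, 9, 12, 15, 16, 17 and 18. Others were under ethylene at weeks 3, 6, 9, 12 and 15 or in air at weeks 16, 17 and 18. All of these were used to see whether the week 0 tissue difference was found again. They also entered the shared fit, which set the filter, the scaling and the spread behind the week 0 p-values. Lists of tissue genes and a comparison at matched depth were taken from later libraries too. Per the labels, none of the groups carries a transgene or mutation. Whether the 4 libraries of each group are separate tubers, pools or repeats of a sample is not in the labels, so p-values here cover only the spread among these libraries, which may be technical.

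A potato tuber is a swollen underground stem. Its eyes hold buds, which are small shoot meristems wrapped in young leaves, and one of them grows out as the sprout once dormancy ends. The flesh is mostly storage parenchyma, large cells filled with starch and storage proteins, crossed by strands of vascular tissue. The 2 tissues therefore differ in cell types, and in bulk samples fewer cells of a type and less RNA per cell cannot be told apart.

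The deposited gene table gives counts for 32878 gene IDs. None of these IDs could be paired with a gene name from the table at hand (0 matches), so genes are given by ID, without a role, and a check of the tissues by named marker genes was not possible. In its place, lists were taken from the later control weeks: genes past the threshold at each of the 8 later control weeks and at least 16-fold apart in 1 direction. Of the 448 genes on the bud list, 410 were higher in bud at week 0 and 0 were higher in flesh by the same test (28.2% of all genes tested were higher in bud). Their summed level was between 3252 and 4048 CPM (counts relative to the scaled library total) in the 4 bud libraries and between 48.3 and 77.2 CPM in the 4 flesh libraries. The flesh list held 2 genes, both higher in flesh at week 0, with a summed level of 0 to 0.478 CPM in the bud libraries and 1.604 to 6.45 CPM in the flesh libraries. Each of the 8 libraries thus stood with its labelled tissue on both lists, although the flesh list was too short to say much.

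The bud libraries listed more genes than the flesh libraries. Library totals did not overlap between the tissues, with 44333107, 42921400, 41465323 and 43179878 counts in the bud libraries and 29130310, 26126835, 26145524 and 24836032 counts in the flesh libraries, so each library was thinned to the smallest total before genes were counted. At that depth 21757, 21637, 21656 and 21632 genes had a count in the bud libraries, against 19249, 18947, 18801 and 18168 in the flesh libraries. The bud libraries were close to each other and all lay above the flesh libraries. The means were 21670.5 ± 58.6 genes in bud and 18791.25 ± 455 genes in flesh (SD, n = 4 each), a difference of 2879.25 genes (two-sided exact permutation test, p = 0.0286, adjusted over 2 tests 0.0286, the smallest p that 4 against 4 allows). Thinning removed few genes, since only 2.78% of the values above 0 in these libraries were under 10 counts and the smallest was 2. Without thinning the means were 21680 genes in bud and 18791.5 in flesh. The thinned difference and its p are thus nearly those of the unthinned libraries, and thinning could not show what depth adds to them. No value of 1 was listed (0 cases), and whether small values were set to 0 before deposit was not tested. Libraries of other weeks gave the comparison at matched depth. The 7 flesh libraries at least as deep as the shallowest week 0 bud library listed 19313 to 20168 genes, and the 21 bud libraries no deeper than the deepest week 0 flesh library listed 19802 to 23194 genes. The lowest of these was 1 bud library of the air group of week 17, which stood apart in its group, and the other 20 listed 20104 to 23194 genes.

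**Figure D1:**
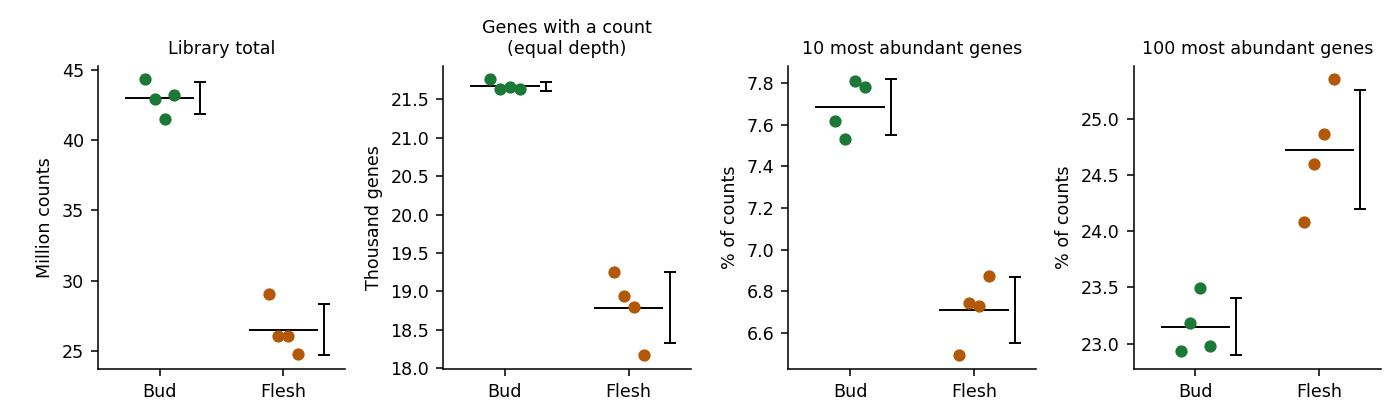
Library total, genes with a count after thinning to equal depth, and the percentage of counts held by the 10 and by the 100 most abundant genes in the 4 bud and 4 flesh libraries of week 0 (points are libraries, lines are means, error bars are SD, and the vertical axes do not start at 0). Bud libraries lay above flesh libraries in the first 3 panels and below them in the fourth, where the means were 23.1% in bud and 24.7% in flesh.

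Counts were spread over more genes in bud, except at the very top of the list. The 100 most abundant genes of a library held 22.9%, 23.2%, 23.5% and 22.98% of its counts in bud and 24.1%, 24.6%, 24.9% and 25.4% in flesh. The tissues did not overlap. The means were 23.1 ± 0.256% in bud and 24.7 ± 0.529% in flesh (SD, n = 4 each), a difference of -1.57 percentage points (exact permutation test, p = 0.0286, adjusted over 2 tests 0.0286). The 1000 most abundant genes held 55.9% in bud and 60.1% in flesh, and 713.5 genes in bud and 567.25 in flesh were needed on average to reach 50% of the counts. The direction was the opposite for the 10 most abundant genes, which held 7.68% of the counts in bud and 6.71% in flesh (exact permutation test, p = 0.0286). Of the 100 genes most abundant in each tissue, 74 were on both lists, 74% of each. All these rankings left out 38 genes that only the transcript table lists. The most abundant of them averaged 13090 CPM in bud and 9365 CPM in flesh.

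Of the genes that passed the filter over the whole series, about as many differed between the tissues as did not. The large differences lay almost entirely on the bud side. That filter also let in genes with few counts at week 0. With the 8 libraries filtered and fitted alone, 12634 of 20332 genes tested differed. The counts below are those of the fit over all libraries. Of 24835 genes tested, 12233 (49.3%) differed: 7008 (28.2%) had more in bud and 5225 (21%) more in flesh (edgeR quasi-likelihood test, Benjamini-Hochberg adjusted p under 0.05). Among these, 4299 bud genes and 1433 flesh genes were at least 2-fold apart, 5732 in all (23.1% of genes tested). At 4-fold or more the bud side held 2645 genes (10.7% of genes tested) and the flesh side 263 (1.06%). At 16-fold or more they were 1430 and 68 (6.03% together), and at 64-fold or more 448 and 6. For these classes a gene without counts in the lower tissue was entered at a floor of 3 counts over the 4 libraries. The median absolute log2 difference was 1.36 for genes higher in bud and 0.73 for genes higher in flesh, with genes at this floor or at their fitted value. The median log2 difference of all genes tested was 0.09.

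**Figure D2:**
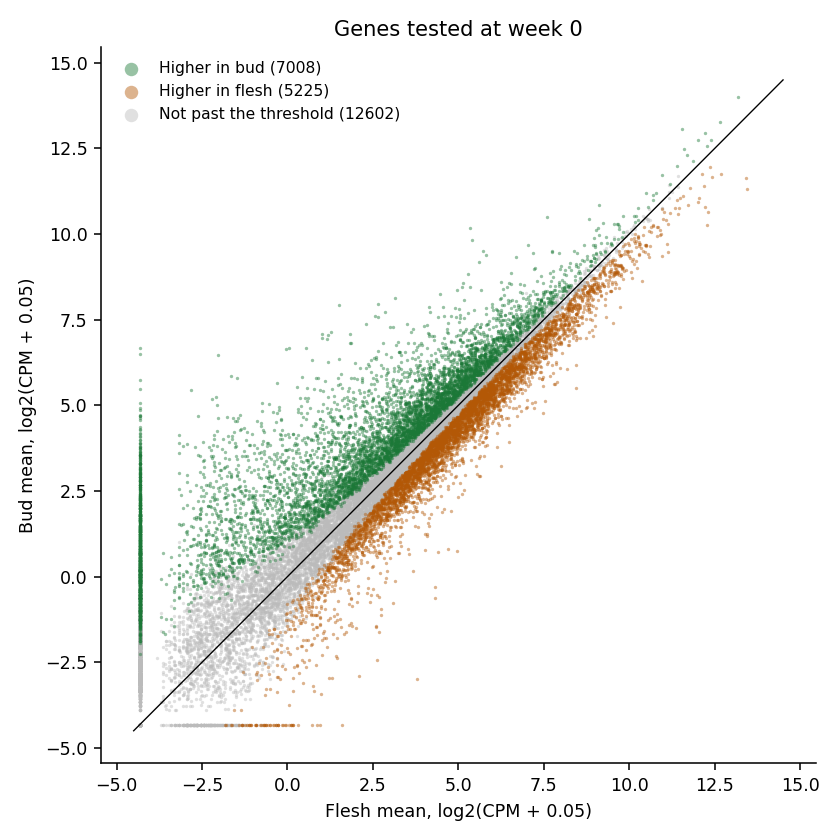
Mean level in bud (vertical axis) against mean level in flesh (horizontal axis) at week 0, both as log2(CPM + 0.05), for the 24835 genes tested, each mean over 4 libraries. Green points are the 7008 genes higher in bud, brown points the 5225 with more in flesh and grey points the rest, and the line marks equal levels. The green points reach far to the left of the line at low flesh levels, while most brown points lie close to it.

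**Figure D3:**
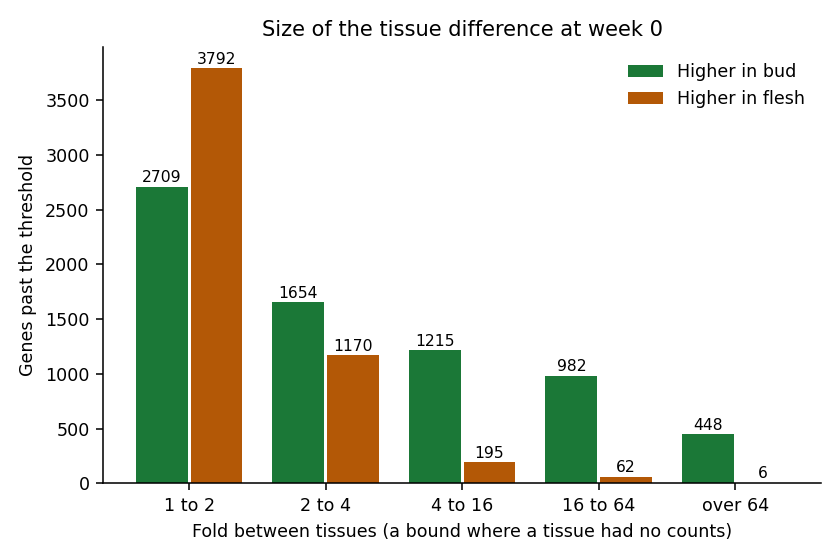
Number of genes past the threshold by the size of the difference, with bud-side genes at the left of each pair and flesh-side genes at the right. Under 2-fold there were 2709 bud-side and 3792 flesh-side genes, and the bud side had more in every larger class.

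Which tissue had more genes on its side depended on the level of the gene. Among the 7141 genes with a mean under 1 CPM over both tissues, 15.9% were higher in bud and 2.45% in flesh. Among the 8417 genes between 10 and 100 CPM the shares were 34.4% and 33.2%. Among the 1904 genes at 100 CPM or more they were 27.99% and 47.4%, so the abundant genes were more often higher in flesh. A count of genes whose 4 bud and 4 flesh libraries did not overlap used no test, but the same filter and scaling. It gave 6892 genes (27.8%) on the bud side and 4981 (20.1%) on the flesh side.

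A gene that did not pass the threshold was not always shown to be equal. Of the 12602 such genes, 7081 had a 95% interval of the difference that lay within 2-fold in both directions, and 5521 had an interval that reached beyond 2-fold. With the 4081 genes that passed the threshold and still lay within 2-fold, 11162 genes (44.9% of genes tested) were held within 2-fold between the tissues. The narrowest intervals of the difference that lay within 2-fold, among genes of at least 100 CPM, were those of Soltu.DM.02G011210 on chromosome 2 and Soltu.DM.11G001030 on chromosome 11. Soltu.DM.11G001030 had 682, 703, 682 and 674 CPM in the bud libraries and 678, 660, 670 and 626 CPM in the flesh libraries. The tissues overlapped, and the log2 difference of 0.06 had a 95% interval of -0.04 to 0.15 (edgeR, adjusted p = 0.35). Soltu.DM.02G011210 averaged 583 ± 5.70 CPM in bud and 716 ± 35.3 CPM in flesh (SD, n = 4 each). This small difference was resolved, at -0.30 on the log2 scale with an interval of -0.39 to -0.20 (edgeR, adjusted p = 5.34e-08).

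Many bud genes were not found in flesh at all. Of the genes higher in bud, 1265 had no counts in any of the 4 flesh libraries, while 52 of those higher in flesh had no counts in any bud library. With at least 1 CPM in each library of the other tissue, 519 genes were absent from the flesh counts and 2 were absent from the bud counts. After thinning to the smallest total, 923 genes had at least 10 counts in each bud library and none in flesh, against 10 genes with at least 10 counts in each flesh library and none in bud. A count of 0 over the 4 flesh libraries allows a mean of up to 0.0299 CPM, and over the 4 bud libraries up to 0.0177 CPM, which covers counting error only. If small values were set to 0 before deposit, which was not tested, a count of 0 could stand for more. Folds at this floor would then not be lower bounds.

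The 2 widest differences on the bud side were of this kind. Soltu.DM.05G023610, on chromosome 5, had 104.7, 115.1, 107.1 and 84.8 CPM in the bud libraries and no counts in any flesh library. The tissues did not overlap. Its bud mean of 102.9 ± 12.9 CPM (SD, n = 4) was 3442-fold that of flesh entered at the floor of 3 counts over the group. The adjusted p was 1.56e-28 in edgeR, and 9.89e-12 in the edgeR fit of the 8 libraries alone. Soltu.DM.09G025040, on chromosome 9, had 83.1, 115.2, 93.7 and 67.8 CPM in bud, with nothing counted in flesh. Its bud mean was 3009-fold that of flesh at the same floor (edgeR, adjusted p = 2.16e-30). Both stayed near absence in flesh through storage, with control flesh means of at most 0.366 and 0.178 CPM, and both were higher in bud in all 16 later comparisons of the tissues. Their bud levels were not constant over the control weeks. At weeks 0, 3, 6, 9, 12 and 15 the bud means of Soltu.DM.09G025040 were 89.96, 101.4, 313, 623, 189.5 and 82.4 CPM. Those of Soltu.DM.05G023610 were 102.9, 114.4, 138, 338, 173 and 114.2 CPM. Each had its highest control bud mean at week 9.

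The 2 widest differences on the flesh side were smaller and less even between libraries. Soltu.DM.03G023550, on chromosome 3, had 0.138, 0, 0 and 0.162 CPM in the bud libraries and 24.2, 0.521, 6.46 and 23.9 CPM in the flesh libraries. The tissues did not overlap, but the flesh libraries ranged from well under 1 CPM to over 20. The means were 0.0750 ± 0.0872 CPM in bud and 13.8 ± 12.1 CPM in flesh (SD, n = 4 each; log2 difference -7.43 ± 1.06 SE, edgeR, adjusted p = 9.94e-09). Soltu.DM.02G009990, on chromosome 2, had 0, 0.144, 0.391 and 0 CPM in bud and 2.72, 8.02, 4.08 and 9.66 CPM in flesh (log2 difference -5.48 ± 1.04 SE, edgeR, adjusted p = 2.54e-06). It was higher in flesh at 6 of the 8 later control weeks, while Soltu.DM.03G023550 was so at 2 of 8. At weeks 0, 3, 6 and 9 the control flesh means of Soltu.DM.03G023550 were 13.8, 6.65, 2.44 and 0.795 CPM, and it had no counts in control flesh from week 15 on.

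Measured by share of the counts, the tissue difference rested on moderate changes of common genes and not on the genes seen in 1 tissue alone. The 7008 genes higher in bud held 40.5 ± 0.985% of the counts of a bud library and 21.8 ± 1.58% of a flesh library (SD, n = 4 each). The 5225 genes higher in flesh held 34.5 ± 1.01% in bud and 54.4 ± 2.28% in flesh. These shares describe the genes chosen by the same contrast and carry no test. Genes at least 4-fold higher in bud held 4.68% of the counts in bud and 0.523% in flesh, and those at least 4-fold higher in flesh held 0.477% in bud and 2.05% in flesh.

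The genes with the largest difference in CPM were among the most abundant of both tissues. Soltu.DM.09G002330, on chromosome 9, had 16350, 15740, 17580 and 16390 CPM in bud and 9437, 9438, 9652 and 8708 CPM in flesh, which is 1.63% of the bud counts and 0.879% of the flesh counts. The libraries did not overlap, and the fold was only 1.77 (log2 difference 0.83 ± 0.07 SE, edgeR, adjusted p = 1.29e-20). Soltu.DM.01G034410, on chromosome 1, averaged 8590 ± 682 CPM in bud and 2982 ± 327 CPM in flesh (SD, n = 4 each; log2 difference 1.53 ± 0.14 SE, edgeR, adjusted p = 8.08e-18). On the flesh side, Soltu.DM.03G023620, on chromosome 3, had 2530, 2952, 2389 and 2304 CPM in bud and 9997, 11210, 10880 and 12920 CPM in flesh. Every flesh library was well over every bud library (log2 difference -2.15 ± 0.25 SE, edgeR, adjusted p = 6.01e-13). Soltu.DM.01G039560, on chromosome 1, averaged 3176 ± 84.1 CPM in bud and 10990 ± 800 CPM in flesh (SD, n = 4 each; log2 difference -1.79 ± 0.11 SE, edgeR, adjusted p = 9.99e-28).

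These 4 abundant genes differed in how their tissue difference held up in storage. Soltu.DM.03G023620 was higher in flesh at all 8 later control weeks although its level changed in both tissues, with control means of 31.5 CPM in bud and 431 CPM in flesh at week 15. Soltu.DM.01G039560 was higher in flesh at 7 of 8. Soltu.DM.01G034410 was higher in bud at 1 of 8, and its control means at week 6 were 957.5 CPM in bud and 1247 CPM in flesh. Soltu.DM.09G002330 was higher in bud at 2 of 8, and its control means at week 18, 11470 CPM in bud and 16620 in flesh, were in the other order.

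The replicate spread was small beside the tissue difference. Over 13038 genes with a mean of at least 5 CPM, the median SD of log2(CPM + 2) between the 4 libraries was 0.12 in bud and 0.16 in flesh. As a description over the genes tested, correlations of log2(CPM + 2) were 0.993 to 0.995 within bud, 0.988 to 0.994 within flesh and 0.920 to 0.946 between the tissues. Genes seen in 1 library and missing in another of the same tissue were few. With no counts in at least 1 library and at least 5 CPM in another, there were 6 genes in bud and 16 in flesh, of which 1 and 5 passed the threshold between tissues.

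The genes higher in either tissue lay on all 12 chromosomes, as read from the chromosome field of the IDs. The share of tested genes higher in bud ran from 24.7% on chromosome 6 to 30.6% on chromosome 9, and the share higher in flesh from 18.9% on chromosome 4 to 23.5% on chromosome 12. Genes at least 4-fold higher in bud often stood next to each other in ID number: 826 of the 2645 (31.2%) were in 327 runs of 2 or more neighbours, and 88 runs held 3 or more. Of all tested genes with a chromosome in their ID, 15.98% stood next to a gene at least 4-fold higher in bud. On the flesh side 46 of 263 genes (17.5%) were in 20 such runs, where 1.56% of all tested genes stood next to a gene at least 4-fold higher in flesh. Neighbouring IDs can be copies of 1 gene, and no source used here says how reads shared by near-identical copies were assigned, so members of a run may not be separate measurements.

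The longest bud run held 14 neighbouring genes on chromosome 8, from Soltu.DM.08G017870 to Soltu.DM.08G018030. Its summed level was 79.4 ± 7.01 CPM in bud and 1.25 ± 0.975 CPM in flesh (SD, n = 4 each), and 10 of the 14 genes had no counts in flesh. Its first gene, Soltu.DM.08G017870, had 2.34, 3.52, 2.50 and 3.498 CPM in bud and was not counted in flesh, which is 99.1-fold with flesh at the floor. Its last gene, Soltu.DM.08G018030, had 21.3, 20.8, 19.6 and 19.6 CPM in bud and 0.529, 0.481, 0.449 and 0 CPM in flesh. The bud and flesh libraries did not overlap for either gene, and Soltu.DM.08G018030 was higher in bud in all 16 later comparisons. Soltu.DM.08G017870 was so in 11 of 16, 4 of them among the 8 control weeks, and its control bud mean was 0.184 CPM at week 18, against 2.96 CPM at week 0. The longest flesh run held 4 genes on chromosome 7, from Soltu.DM.07G027140 to Soltu.DM.07G027170, with a summed level of 1.28 ± 0.299 CPM in bud and 31.5 ± 7.44 CPM in flesh (SD, n = 4 each). The outer genes were low: Soltu.DM.07G027170 averaged 0.150 CPM in bud and 2.60 CPM in flesh, and Soltu.DM.07G027140 had no counts in bud and 0.353, 0, 1.06 and 0.310 CPM in flesh. The call of Soltu.DM.07G027140 rested on flesh replicate 3, since its adjusted p of 0.0109 became 0.0932 without that library, and it was 0.242 in DESeq2.

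Some genes divided their counts differently over their transcripts. Of 3546 genes with at least 2 transcripts past the filter, 53 (1.49%) passed the test of transcript usage between the tissues (edgeR diffSpliceDGE, Simes test, adjusted p under 0.05), and 7 of these did not differ in their gene count. The number was 31 without bud replicate 4 and 35 without bud replicate 1, and it reached 65 without 1 other library. With the replicate number as a block nearly all of these calls were lost, although the replicate numbers did not pair the libraries. For the 38 genes with at least 100 counts in each library, the largest shift of a transcript's share had a median of 23.97 percentage points, it was 20 points or more in 21 genes, and in 8 genes another transcript was the most abundant one in each tissue.

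In the most extreme genes 1 transcript took all the counts in 1 tissue and few or none in the other. Soltu.DM.02G022810.1 held 100% of the counts of its gene in each of the 4 bud libraries and 0% in each of the 4 flesh libraries (adjusted p = 0.000187, diffSpliceDGE in edgeR), while the gene as a whole differed by 0.61 on the log2 scale. Soltu.DM.10G002820.1 likewise held 100% in all bud and 0% in all flesh libraries (edgeR, adjusted p = 1.10e-05). In the other direction, Soltu.DM.04G027930.1 held 12.0%, 14.9%, 31.3% and 22.1% of its gene's counts in bud and 100% in every flesh library. Soltu.DM.01G027320.1 held 38.2%, 42.4%, 26.5% and 25.2% in bud and 100% in every flesh library, and the count of its gene was not called between tissues (edgeR, adjusted p = 0.455). The shares of the first 3 transcripts were all or none in many single libraries. Among the later control libraries with at least 100 counts of the gene, Soltu.DM.02G022810.1 held at least 50% in 22 of 32 bud and 8 of 30 flesh libraries, and Soltu.DM.10G002820.1 in 24 of 32 bud and 9 of 32 flesh libraries. Soltu.DM.04G027930.1 held at least 50% in 17 of 32 bud and 27 of 32 flesh libraries. Within the 4 libraries of a single group, shares of at most 10% and of at least 90% stood side by side in 21, 18 and 21 of the 32 other groups for these 3 transcripts, and in 2 of 32 for Soltu.DM.01G027320.1. At week 0 itself, 262 of 2997 genes with at least 100 counts in each library (8.74%) had a transcript at both extremes among the libraries of 1 tissue. Of the 38 genes past the threshold with at least 100 counts in each library, 18 had such a transcript in at least 1 of the 32 other groups. The share of all genes in those 32 groups was not counted, so these 18 cannot be set against the 8.74% of week 0. How much the assignment of reads to transcripts adds to these differences was not tested.

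Most later weeks held much of the week 0 difference, and weeks 6 and 9 held less of it. Their libraries entered the shared fit and its estimate of the spread, but not the week 0 contrast itself. Of the bud genes of week 0, those again higher in bud at control weeks 3, 6, 9, 12, 15, 16, 17 and 18 were 68.4%, 46.6%, 39%, 61.3%, 62.9%, 68.1%, 57.1% and 67.2%, where 26.9%, 27.3%, 25.9%, 29.3%, 31.6%, 32%, 30.7% and 33.2% of all genes tested were so. Of the flesh genes, those again higher in flesh were 74.9%, 33.7%, 27.6%, 56.5%, 63.8%, 71.3%, 59.2% and 68.9%, where 21.5%, 20.7%, 19.8%, 20.4%, 22.4%, 22.8%, 22.5% and 21.9% of all genes tested were so. At every week the share lay above that of all genes, and it was lowest at weeks 6 and 9. Under ethylene at weeks 3, 6, 9, 12 and 15 the bud genes were found again for 60.7%, 50.8%, 45.6%, 67.3% and 69.9%, where 24.2%, 30.2%, 29.6%, 27.6% and 28.2% of all genes were higher in bud. The flesh genes were found again for 70%, 31.5%, 29.3%, 57.6% and 68.2%, where 20.3%, 21%, 23%, 19.3% and 19.8% of all genes were higher in flesh. In air at weeks 16, 17 and 18 the shares were 62.5%, 57.4% and 71.1% for bud genes (29.1%, 32.1% and 34.1% of all genes) and 65.3%, 48.1% and 68.9% for flesh genes (21.9%, 21.1% and 22% of all genes). At all 8 later control weeks, 1592 of the bud genes (22.7%, where 7.13% of all genes tested were so) and 596 of the flesh genes (11.4%, against 2.71%) kept their direction. Turned round, 89.9% of the genes higher in bud at all 8 later weeks, and 88.4% of those higher in flesh, were already so at week 0. In all 16 later conditions, ethylene and air included, 1227 of the bud genes (17.5%, against 5.28% of all genes tested) and 441 of the flesh genes (8.44%, against 1.91%) kept their direction. At all 8 control weeks the larger differences were found again for more genes, 42.3% of those at least 4-fold higher in bud and 27.8% of those at least 4-fold higher in flesh. At single weeks this did not always hold. The genes at least 4-fold higher in flesh had a smaller share found again than all flesh genes at control weeks 3, 16 and 18 (69.96%, 71.1% and 62.7%) and in air at week 18 (63.5%), and those at least 4-fold higher in bud had a smaller one than all bud genes under ethylene at week 3 (56.5%). Never called in the same direction at a later control week were 569 bud genes (8.12%) and 291 flesh genes (5.57%). The share over all genes tested was not counted, and 8 weeks gave each gene 8 chances of such a call.

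Weeks 6 and 9 stood apart. At control week 6, 17.3% of the bud genes of week 0 were higher in flesh (20.7% of all genes tested), and 22.4% of the flesh genes were higher in bud (27.3% of all genes). At control week 9 these opposite calls were 20.1% of the bud genes (19.8% of all genes) and 29% of the flesh genes (25.9% of all genes). Opposite calls at these weeks were thus about as frequent as such calls among all genes. At the other control weeks they lay well under the shares of all genes, between 1.94% and 8.39% for bud genes and between 1.51% and 6.35% for flesh genes. The libraries under ethylene, which are separate from the controls, showed the same 2 weeks, with opposite calls of 18.7% of bud genes (21% of all genes) and 27.6% of flesh genes (30.2%) at week 6, and of 22.6% (23%) and 32.3% (29.6%) at week 9. For the flesh genes at week 9, opposite calls outnumbered those in the same direction, which were 27.6% in controls and 29.3% under ethylene. The genes with large differences kept their side better, since 57.2% of the genes at least 4-fold higher in bud at week 0 were higher in bud at control week 9.

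**Figure D4:**
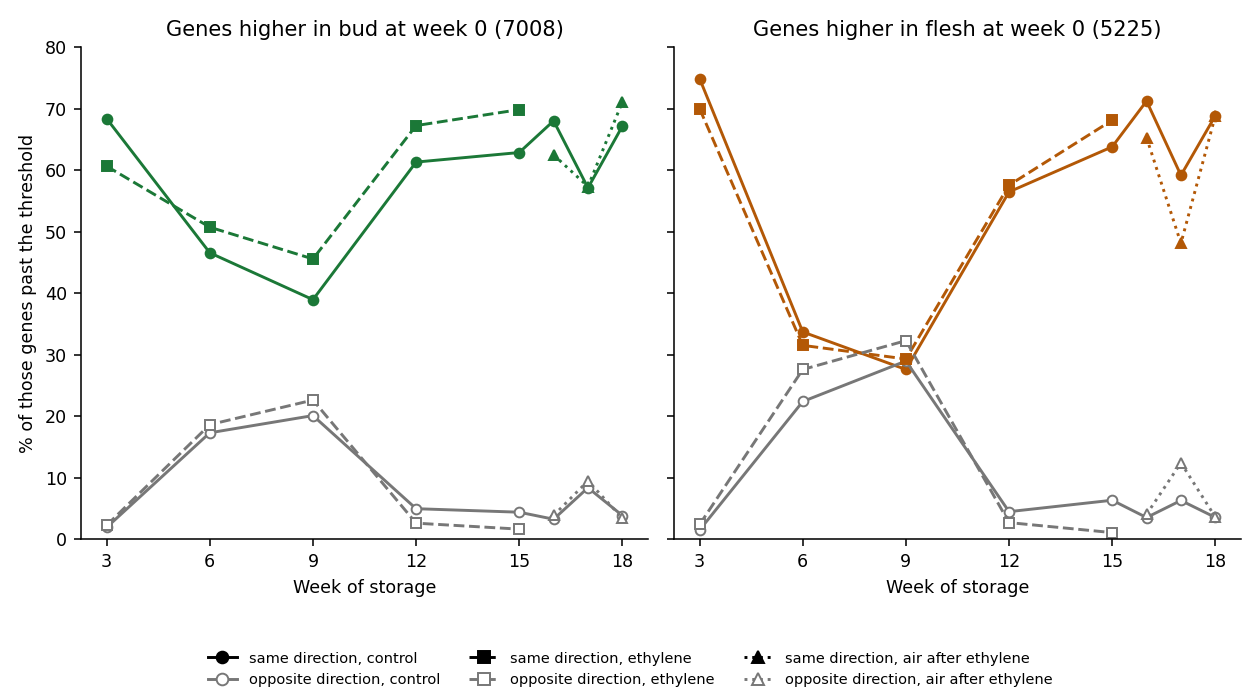
Percentage of the week 0 bud genes (left) and of the week 0 flesh genes (right) that passed the threshold at each later week in the same direction (filled symbols) or in the opposite direction (open grey symbols), in control, ethylene and air libraries. The filled lines dip and the open lines peak at weeks 6 and 9, in control and ethylene alike.

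The genes that turned round by week 9 had moderate differences at both times. They were 1410 genes higher in bud at week 0 and 1515 higher in flesh, of which 36 and 14 had been at least 4-fold apart. Their median absolute log2 difference was 0.69 and 0.69 at week 0, and 0.80 and 0.67 at week 9. Over all bud and flesh genes of week 0 the median at week 0 was 1.36 and 0.73, so the flesh genes that turned round were close to all flesh genes in size. Of these genes, 90.9% and 89.9% were also turned round under ethylene at week 9. Among all bud and flesh genes of week 0 the shares were 22.6% and 32.3%. The week 0 libraries and the shared fit are common to the control and ethylene comparisons. At control week 18, 62.1% and 70.7% had their first direction again, close to the 67.2% and 68.9% of all bud and flesh genes of week 0. The change of the tissue difference itself passed the threshold for 9744 genes between control weeks 0 and 9 (39.2% of genes tested), a comparison chosen after the later weeks were seen.

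The share of counts showed in which tissue the pools moved, for genes chosen by their difference at week 0. At weeks 0, 3, 6, 9, 12, 15, 16, 17 and 18 the 7008 bud genes of week 0 held 40.5%, 37.1%, 28.1%, 27.2%, 35.5%, 38.5%, 38.9%, 39.4% and 36.99% of the counts of control bud libraries. In control flesh they held 21.8%, 22.04%, 24.7%, 27.3%, 26.8%, 28.1%, 25.4%, 30.7% and 23.6%. The bud share was lowest at week 9, while the flesh share was highest at week 17. At week 9 the 2 tissues were thus almost level, with 27.2 ± 1.09% in bud and 27.3 ± 0.380% in flesh (SD, n = 4 each). The flesh genes of week 0 were level too, at 48.02 ± 1.04% in bud and 47.05 ± 0.370% in flesh at control week 9. Library totals at control week 9 were 24413176 to 45745274 counts in bud and 25660355 to 27552908 counts in flesh, and bud libraries still listed more genes (20104 to 20966, against 18897 to 19242 in flesh). The labels give no batch of extraction or sequencing, so a batch that follows the week or the tissue cannot be told apart from it.

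**Figure D5:**
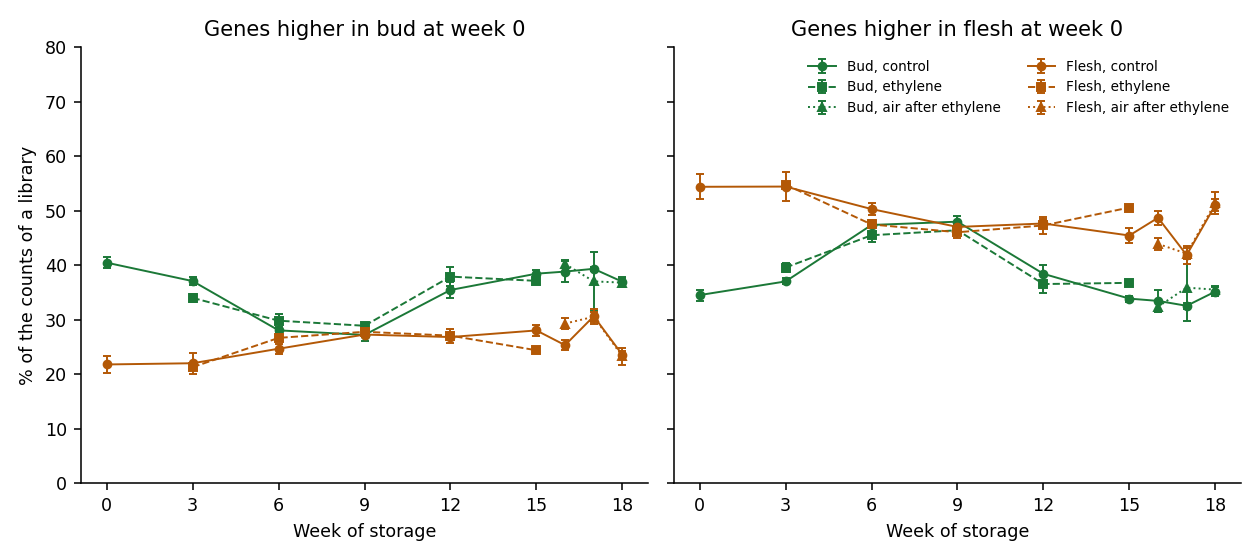
Share of a library's counts held by the genes higher in bud at week 0 (left) and by those higher in flesh at week 0 (right), for bud and flesh groups over the weeks of storage (points are means of 4 libraries, error bars are SD). The wide bar of bud in air at week 17 (SD 5.40 in the left panel) belongs to the group with 1 library that stood apart. Bud and flesh are far apart at week 0, by whose contrast the genes were chosen. In controls they meet at week 9, near 27% in the left panel and 47% to 48% in the right panel. Under ethylene at week 9, bud and flesh are at 28.9% and 27.8% in the left panel. In the right panel they are at 46.4% and 46.1%.

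From week 0 to week 18 the tissue difference changed in 4561 genes of the control tubers (18.4% of genes tested, edgeR interaction test), towards bud in 2026 (8.16%) and towards flesh in 2535 (10.2%). With DESeq2 size factors the split was 2166 towards bud and 2391 towards flesh, and in the DESeq2 test 2805 and 2693. With library totals as the only scaling it was 5002 and 1166, and the median log2 change over all genes was 0.38 in place of 0.05. The balance of the 2 directions thus differed between settings, most with library totals alone, and the cause was not tested. Reversals were a small part. At week 18, 271 of the bud genes of week 0 (3.87%) were higher in flesh, where 21.9% of all genes tested were so, and 186 of the flesh genes (3.56%) were higher in bud, where 33.2% of all genes were so. Among reversed genes with at least 5 CPM at both weeks, the largest changes were in 2 bud genes and 2 flesh genes of week 0.

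Soltu.DM.06G013460, on chromosome 6, had 23.5, 23.5, 23.9 and 23.98 CPM in bud and 12.4, 12.9, 11.1 and 7.04 CPM in flesh at week 0, without overlap. At control week 18 it averaged 1.62 ± 0.104 CPM in bud and 8.88 ± 2.56 CPM in flesh (SD, n = 4 each; change of the log2 difference -3.59 ± 0.37 SE, edgeR, adjusted p = 7.70e-14). By week 3 its level was lower in both tissues, with control means of 5.94 CPM in bud and 3.25 CPM in flesh, against 23.7 and 10.8 CPM at week 0. The mean was still higher in bud at week 3. Soltu.DM.02G017880, on chromosome 2, averaged 99.5 ± 13.9 CPM in bud and 26.2 ± 2.22 CPM in flesh at week 0, and 28.3 ± 3.24 CPM in bud and 59.1 ± 7.98 CPM in flesh at week 18 (change -2.98 ± 0.31 SE, edgeR, adjusted p = 1.43e-13). In both genes the order of the tissues at week 18 was the opposite of that at week 0.

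The 2 flesh genes were lower. Soltu.DM.02G006600, on chromosome 2, had 2.80, 2.25, 2.54 and 4.402 CPM in bud and 5.18, 6.26, 4.70 and 4.83 CPM in flesh at week 0. At week 18 it averaged 6.86 ± 1.14 CPM in bud and 0.636 ± 0.798 CPM in flesh (SD, n = 4 each; change 4.08 ± 0.47 SE, edgeR, adjusted p = 8.19e-12). Soltu.DM.06G017460, on chromosome 6, averaged 2.51 ± 0.759 CPM in bud and 7.93 ± 3.15 CPM in flesh at week 0, and 10.9 ± 2.35 CPM in bud and 2.29 ± 1.33 CPM in flesh at week 18 (change 3.92 ± 0.46 SE, edgeR, adjusted p = 1.80e-11). Its week 0 libraries did not overlap, the highest bud library being at 3.52 CPM and the lowest flesh library at 3.61 CPM.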

How the data were processed

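RNA was extracted with a plant RNA kit and sequenced, per the labels' protocols. Per the submitters' processing notes, the tools were StringTie, HISAT2, SAMtools and Trimmomatic (versions, genome build and gene models: not given in the sources used here). Counts were deposited by the authors per gene and per transcript, as whole numbers, and were taken as unnormalized. One row that names no gene held 2.60% to 2.79% of the counts of the 8 libraries and was left out. Its counts matched, within 5 counts, those of 38 genes listed only in the transcript table plus the surplus of 11 others. One transcript row with 89 blank cells was left out. The numbers in the titles were read as weeks.

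Genes were filtered (edgeR filterByExpr, minimum count 10, minimum total 15), scaled by trimmed means (TMM) and tested in edgeR 4.0.16 under R 4.3.3, with 1 coefficient for each of 34 groups over all libraries, and p-values adjusted by Benjamini-Hochberg over all genes tested (threshold 0.05). CPM are counts relative to the scaled totals, and standard errors come from the F statistic. Transcript usage was tested in the 8 libraries with diffSpliceDGE. For library measures the test was the exact permutation test, two-sided. A group without counts was entered at 3 counts over the group. IDs named are at most 2 higher and 2 lower per comparison: the widest differences with no overlap and at least 5 CPM, the largest differences in CPM, the largest reversals by week 18 (at least 5 CPM at both weeks), the largest shifts of a transcript's share, the ends of the longest run, and the 2 narrowest intervals at 100 CPM or more. The members, rules and lists were chosen with earlier results of these data known. The steps were tested on simulated data, where few genes were changed and the share of wrong calls lay above the nominal one, so counts of calls may be too high. Alternatives were other scalings, filters, DESeq2 1.42.0, subsets of libraries, a replicate block and equal depth.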

Additional observations from a re-analysis of the deposited data

Results flagged for a closer look

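For 9 of the genes named, the tissue difference at control week 18 differed from that at week 0 by edgeR's interaction test. The adjusted p was 1.56e-23 for Soltu.DM.09G002330, 1.31e-09 for Soltu.DM.01G034410, 7.70e-14 for Soltu.DM.06G013460, 1.43e-13 for Soltu.DM.02G017880, 8.19e-12 for Soltu.DM.02G006600, 1.80e-11 for Soltu.DM.06G017460 and 1.98e-11 for Soltu.DM.11G001030. The last of these was nearly equal in the tissues at week 0 and averaged 565 CPM in bud and 813 CPM in flesh at week 18. The adjusted p was 0.000109 for Soltu.DM.03G023550 and 0.0458 for Soltu.DM.07G027140, both of which had a group without counts. Over all genes tested the tissue difference changed in 4561 by week 18 and in 9744 by week 9.

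Of 46 sets of 4 libraries checked for a value far from the other 3 (library measures, levels and transcript shares of the genes named), 1 had one: Soltu.DM.08G018030 was at 0 CPM in flesh replicate 4 and between 0.449 and 0.529 CPM in the other flesh libraries. Chance gives about 1 such case in 20 sets.

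The 38 genes that only the transcript table lists were outside the comparisons of the report. With gene counts summed from transcripts, 33 of them could be tested and 21 passed the threshold between the tissues at week 0, 11 higher in bud and 10 higher in flesh. The most abundant, named after its values were seen, was Soltu.DM.07G027620, with means of 13090 ± 542 CPM in bud and 9365 ± 166 in flesh (SD, n = 4 each; log2 difference 0.48 ± 0.07 SE, edgeR, adjusted p = 1.00e-08).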

How the results depend on the processing

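The number of genes past the threshold at week 0 stayed between 11927 and 12634 under other scalings, filters, DESeq2, equal depth, counts summed from transcripts and the 8 libraries alone (equal depth and summed transcripts were chosen after seeing the data), and was 12790 without the odd bud library of the air group of week 17. Leaving out 1 of the 8 libraries gave 11102 to 11818. The number of genes tested was 24835 as reported, 20332 in the 8 libraries alone and 19894 at equal depth. It was 20634 with a minimum count of 50 and 27504 without the filter. The share found again at every later control week was 19.2% in DESeq2, 18.9% with a minimum count of 50 and 18.0% to 19.1% without 1 library, against 17.9%. With library totals as the only scaling, 5002 genes changed towards bud by week 18 and 1166 towards flesh, and the median log2 change to week 9 moved to -0.14. Opposite calls at control week 9 lay between 18.9% and 24.1% for bud genes and between 23.5% and 31.2% for flesh genes over 16 settings. The replicate numbers did not pair the libraries: deviations of same-numbered libraries correlated at 0.19, -0.02, 0.03 and -0.17, and 1 of 4 bud libraries correlated best with its own number. With the number as a replicate block, 12077 genes passed at week 0 (8 libraries), 4746 changed by week 18 (16 libraries) and 1 passed for transcript usage, in place of 53. Without 1 library the usage count was 31 to 65.

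The difference in genes detected was 2671.5 to 3031.8 and that in the share of the 100 most abundant genes -1.79 to -1.36 points without 1 library, with an exact p of 0.0571, the smallest that 3 against 4 allows. For the 10 most abundant genes the share turned round, to 0.975 points. For the 18 genes named, all 320 alternative values kept their direction at week 0, and 317 also their side of the threshold; Soltu.DM.07G027140 lost it in 2 settings and Soltu.DM.11G001030 passed it in DESeq2 (0.0367). The 4 reversals by week 18 kept theirs in 60 of 60. The cause of these shifts was not tested. Depth, which followed tissue, limits genes with few counts.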
